A study of Drosophila melanogaster with 2 samples.

Results

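Chromatin binding of E(var)3-9 was examined at 42 genes of the cell cycle and of DNA replication in Drosophila melanogaster, out of 13945 protein-coding genes on the 6 assembled chromosome arms. The genes were taken from a list of names and all 42 were found in the Ensembl annotation of dm6. They comprise 18 replication factors, 20 cyclins, kinases and other cell cycle regulators, and 4 genes of the mitotic checkpoint. The data are from chromatin immunoprecipitation followed by sequencing (ChIP-seq) of whole embryos, male and female pooled, aged 0 to 24 h, from 1 transgenic line in which E(var)3-9 carries green fluorescent protein (GFP) at its C-terminus. An antibody against GFP was used on 2 biological replicates, numbered 2 and 3, and no other genotype, stage or treatment was compared. The labels name neither the promoter of the transgene nor its insertion site, and a whole embryo mixes dividing and non-dividing cells of all tissues.

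The measurements are regions of enrichment, each with a summit and a signal value that the authors' caller assigned. The scale of that value is not stated, and it is larger for stronger regions. The joint list, made from both replicates, held 24963 regions. The set that the authors kept by irreproducible discovery rate (IDR) was made from this list and the replicate lists, and its members are called IDR peaks here. They are the 3438 strongest regions of the joint list. Their signal ran from 58.2 to 1206 with a median of 89.3. Each replicate's own list held 30000 regions. Read depth is unknown. A gene was counted as having a region when a summit lay within 500 bp of an annotated transcription start site (TSS). Positions below are given relative to the nearest TSS of the gene, upstream being on the side away from transcription.

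Cells copy their DNA in S phase from origins at which the origin recognition complex, Cdc6 and Cdt1 load the MCM helicase, and geminin blocks reloading. Cyclins bound to cyclin-dependent kinases drive entry into S phase and mitosis, Cdc25 phosphatases activate the mitotic kinase, and the anaphase-promoting complex ends mitosis by degrading cyclins. The fly embryo begins with rapid cycles run on maternal products and later brings transcription of stg and of the E2F targets into control of the cycle. Many replication genes of the fly carry binding sites for E2F, which works with Dp and is held in check by Rbf, and for DREF, whose site is called the DRE. The name E(var)3-9 marks a gene found as an enhancer of variegation, the mosaic silencing of genes placed near heterochromatin.

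The sequences under the summits of 5 of the 13 genes with an IDR peak are given first, since the results below concern where these summits lay and which words they held. The 5 were chosen after the sequences had been seen, to show windows with and without CGATA. Each covers 60 bp to either side of the summit in dm6, except that the Bub3 window ends where the first exon of its neighbour Cap-D2 begins. They are written 5′ to 3′ on the coding strand of the named gene. Capitals mark CGATA, or TATCG where it lies on the other strand, the core that the border protein BEAF-32 is known to bind and that is part of the DRE. The Mcm2 window is chr3R:8264799-8264919 on the plus strand, the Mcm5 window chr3R:10788249-10788369 on the plus strand, the Cdk1 window chr2L:10386451-10386571 on the minus strand, the aurA window chr3R:11962859-11962979 on the plus strand, and the Bub3 window chr3R:29675531-29675650 on the minus strand. None of the 5 held the complete DRE or an E2F site. CGATA was in those of Mcm5, aurA and Bub3.
Mcm2: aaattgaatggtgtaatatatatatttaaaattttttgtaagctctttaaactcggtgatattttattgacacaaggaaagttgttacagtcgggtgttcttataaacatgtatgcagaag
Mcm5: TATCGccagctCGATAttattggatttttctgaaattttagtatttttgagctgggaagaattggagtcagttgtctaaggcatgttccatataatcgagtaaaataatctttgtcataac
Cdk1: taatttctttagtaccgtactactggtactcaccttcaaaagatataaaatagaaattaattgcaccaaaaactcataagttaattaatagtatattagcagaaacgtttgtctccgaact
aurA: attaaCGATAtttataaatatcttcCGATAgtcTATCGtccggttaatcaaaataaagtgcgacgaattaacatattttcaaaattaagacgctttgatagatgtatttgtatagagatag
Bub3: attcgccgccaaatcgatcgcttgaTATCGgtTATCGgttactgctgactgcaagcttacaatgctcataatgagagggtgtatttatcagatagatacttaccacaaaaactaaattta

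E(var)3-9-GFP was found above the IDR threshold at 13 of the 42 genes (31.0%), against 16.5% of all protein-coding genes. The 13 were Mcm2, dpa, Mcm5, dup, RnrS, CycE, Cdk1, fzr, Dp, aurA, aurB, BubR1 and Bub3. The strongest was RnrS, the small subunit of ribonucleotide reductase, with a joint signal of 236 at rank 222 of the IDR peaks, and the weakest was Mcm5, a helicase subunit, with 64.2 at rank 2975. A further 17 genes had a weaker region of the joint list, 7 had a region in a replicate list alone, and 5 had none in any list. Over all 13945 protein-coding genes these counts were 3610, 2436 and 5597. In the complete joint list 30 of 42 genes had a region (71.4%), against 42.4% of all protein-coding genes. The median of the strongest joint signal was 55.02 over these 30 genes and 43.99 over all protein-coding genes with a region. Over the 13 it was 110.1, and over the 2302 protein-coding genes with an IDR peak 101.2. No test was made of these shares, since 1 group was measured and the genes were listed with earlier results of these data known.

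The IDR peaks were spread over all 3 classes. Of the replication factors 5 of 18 had one (27.8%), of the cyclins, kinases and regulators 6 of 20 (30.0%), and of the mitotic checkpoint genes 2 of 4. No difference between the classes was tested, and the last has only 4 genes. In the complete joint list the counts were 10 of 18, 16 of 20 and 4 of 4. The 5 genes with no region anywhere were Orc4, Mcm3, PCNA and RnrL among the replication factors and twe among the regulators.

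**Figure D1:**
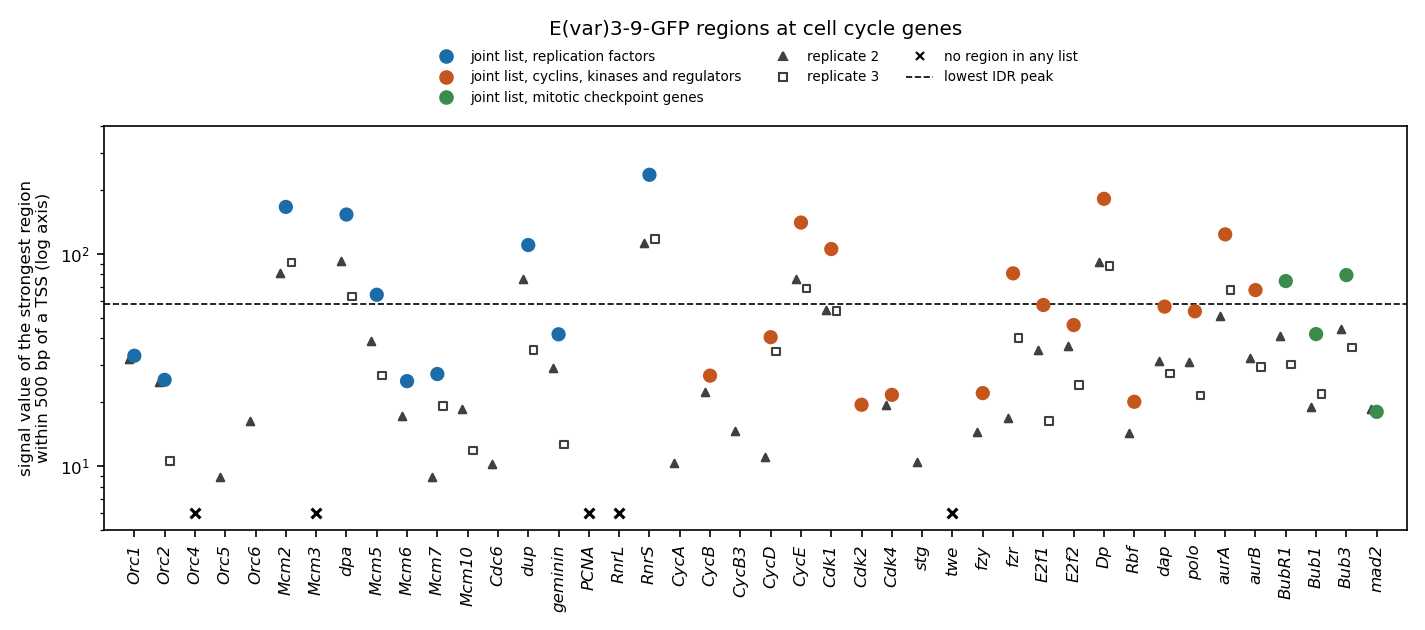
Signal value (log axis) of the strongest region within 500 bp of a TSS for each of the 42 genes, in the joint list (coloured by class), replicate 2 (triangles) and replicate 3 (open squares). The dashed line is the lowest IDR peak at 58.2, crosses at the foot mark the 5 genes with no region, and 13 genes lie above the line.

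The counts in the replicates taken alone were close to the joint count. Among the 3438 strongest regions of replicate 2 there were 12 of the 42 genes (28.6%), against 16.4% of all protein-coding genes. Among those of replicate 3 there were 15 (35.7%), against 15.4%. In 11 genes both replicates had such a region, which is 26.2%, where all protein-coding genes gave 12.6%. The complete lists held 36 genes in replicate 2, against 50.8% of all protein-coding genes, and 23 in replicate 3, against 37.3%. All 23 were among the 36, so both lists held 54.8% of the 42 genes, against 29.1% of all protein-coding genes. Of the 5201 protein-coding genes in the list of replicate 3, 4061 were also in that of replicate 2.

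**Figure D2:**
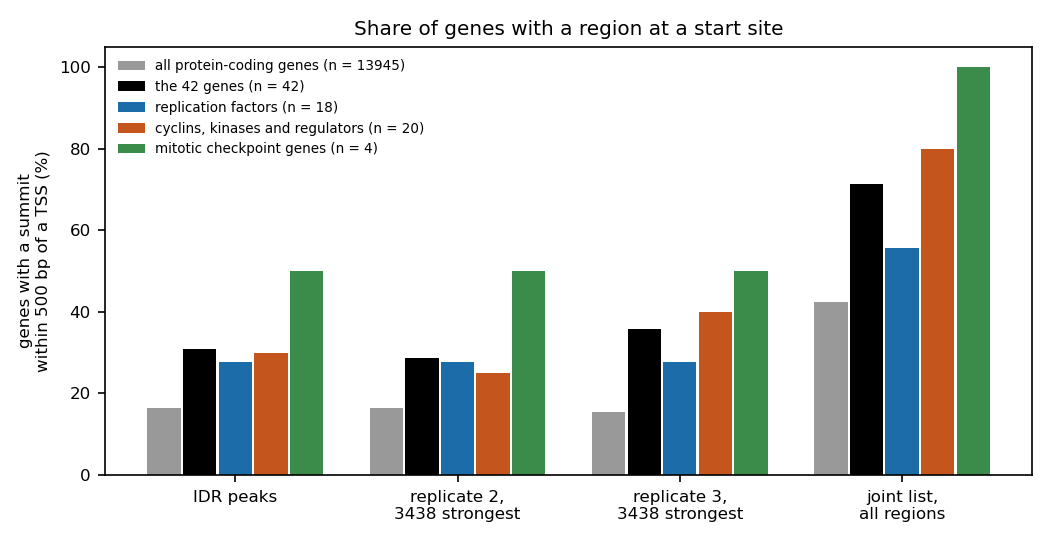
Percentage of genes with a summit within 500 bp of a TSS in 4 region lists, for all 13945 protein-coding genes, the 42 genes and their 3 classes. The bars of the 42 genes stand above those of all genes in each list, from 28.6 against 16.4% in replicate 2 to 71.4 against 42.4% in the complete joint list.

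The helicase genes were unequal. The MCM complex is a ring of 6 subunits that unwinds DNA at the replication fork. Mcm2 (FBgn0014861) had a joint signal of 166.5 at rank 520, with 81.4 at rank 745 in replicate 2 and 90.9 at rank 317 in replicate 3. Its summit lay 111 bp upstream of the TSS in intergenic sequence on 3R from 8264829 to 8264937. The gene dpa (FBgn0015929), which encodes the Mcm4 subunit, had 153 at rank 616, with 92.8 at rank 555 in replicate 2 and 63.0 at rank 652 in replicate 3, and its summit lay 132 bp upstream. Both were among the 860 strongest IDR peaks. Mcm5 (FBgn0017577) had 64.2 at rank 2975, with 38.9 at rank 2930 in replicate 2 and 26.7 at rank 3024 in replicate 3, and its summit lay 215 bp upstream. Mcm6 and Mcm7 had only weaker joint regions, with signals of 25.1 and 27.2 at ranks 12255 and 10583 of 24963. Mcm6 had 17.3 in replicate 2 and no region in replicate 3, while Mcm7 had 8.90 and 19.2. Mcm3 had none in any list, and its nearest IDR summit lay 1050 bp upstream with 83.0, within 500 bp of the TSS of Rnp4F.

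The origin recognition complex had no IDR peak at any of the 5 subunit genes listed, where 16.5% of all protein-coding genes had one. Its subunits mark the sites where replication can start. Orc1 and Orc2 had weak joint regions, with signals of 33.1 and 25.5 at ranks 7575 and 11933. Orc1 had 32.0 in replicate 2 and no region in replicate 3, and Orc2 had 24.8 and 10.6. Orc5 and Orc6 appeared in the list of replicate 2 alone, with 8.86 and 16.4. Orc4 had no region. In replicate 2, Orc1 and Orc2 were at ranks 3964 and 5736 of 30000.

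Among the factors that load and license the helicase, dup, which encodes Cdt1, stood apart. It had 2 IDR peaks. The stronger had a joint signal of 110.1 at rank 1192, with 76.2 at rank 847 in replicate 2 and 35.2 at rank 1973 in replicate 3, and lay 55 bp upstream of the nearest TSS. The other had 66.8 at rank 2819, with 30.01 at rank 4377 and 34.9 at rank 2002, and lay 329 bp upstream of a TSS of dup, within an intron of SRPK. The Cdt1 inhibitor geminin had a joint signal of 41.8 at rank 5428, with 28.8 in replicate 2 and 12.6 in replicate 3. Mcm10 had a region in both replicate lists, with 18.5 at 101 bp upstream and 11.8 at 477 bp downstream, but none in the joint list. Cdc6 had 10.2 in replicate 2 alone.

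The subunits of ribonucleotide reductase, which makes the deoxynucleotides for DNA synthesis, were opposite in the lists. RnrS (FBgn0011704) had a joint signal of 236, with 112 at rank 359 in replicate 2 and 118 at rank 165 in replicate 3. Its region lay on 2R from 11985515 to 11985698, with the summit 229 bp upstream of the TSS in intergenic sequence. RnrL, the large subunit, had no region in any list, and its nearest IDR summit was 13189 bp away. PCNA, the sliding clamp of DNA polymerase, had none either, with the nearest 17305 bp away.

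Of the cyclins, only CycE had an IDR peak. Cyclin E works with Cdk2 at the entry into S phase. CycE (FBgn0010382) had a joint signal of 140.5 at rank 729, with 76.3 at rank 841 in replicate 2 and 68.9 at rank 552 in replicate 3. The summit lay on 2L in an intron of the gene, 431 bp upstream of the nearest of its 3 TSSs. A second IDR peak lay in a CycE intron 631 bp upstream of a TSS, outside the 500 bp window, with 102. CycD had a joint signal of 40.5. Its strongest region in replicate 3 had 34.7 at rank 2018, while in replicate 2 it had 10.98 at rank 20744, in a region too far from the joint summit to match it. The mitotic cyclin CycB had 26.7 in the joint list, 22.4 in replicate 2 and no region in replicate 3. CycA and CycB3 had a region in replicate 2 alone, with 10.4 and 14.6.

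The kinases of the cycle were unequal too. Cdk1 (FBgn0004106), the kinase of mitosis, had a joint signal of 105.4 at rank 1300, with 54.4 at rank 1639 in replicate 2 and 53.9 at rank 919 in replicate 3, and its summit lay 249 bp upstream. Cdk2 and Cdk4 had 19.4 and 21.7 at ranks 20750 and 16590 of the 24963 joint regions. Cdk2 had no region in either replicate list, and Cdk4 had 19.5 in replicate 2 alone. Cdk4 also had 2 IDR peaks outside its windows, 645 bp upstream with 76.4 and 1039 bp downstream in an intron with 64.4. The Aurora kinases act on centrosomes (aurA) and on centromeres (aurB), and both had IDR peaks. The stronger peak of aurA (FBgn0000147) had 123.6 at rank 949, with 50.9 at rank 1853 and 67.4 at rank 575 in replicates 2 and 3, and lay 205 bp upstream. A second peak, 1 bp upstream of the TSS, had 81.9 at rank 2017 in the joint list and 36.4 at rank 3264 in replicate 2. In replicate 3 it matched the same region as the first. The joint signal of aurB (FBgn0024227) was 67.5 at rank 2769, with 32.2 at rank 3920 and 29.3 at rank 2613, at 218 bp upstream. The kinase gene polo lay just below the lowest IDR peak with 53.6 at rank 3840, with 30.8 and 21.5 in the replicates.

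The regulators counted in one class with the cyclins and kinases had IDR peaks at 2 genes, Dp and fzr. Dp (FBgn0011763), the partner of the E2F factors, had the second highest joint signal of the 42 genes, 181.8 at rank 429, with 91.1 at rank 586 in replicate 2 and 87.6 at rank 343 in replicate 3, at 225 bp upstream. A second IDR peak of Dp, 384 bp downstream of a TSS, had 63.7 at rank 3007, and there the replicates were far apart with 47.7 at rank 2082 and 11.6 at rank 21356. E2f1, the activating E2F, had 57.4 at rank 3510, just below the lowest IDR peak. It had 35.1 in replicate 2 and 16.3 in replicate 3. Inside the E2f1 gene 2 IDR peaks lay in introns, 3381 and 4755 bp downstream of the nearest TSS, with 83.3 and 67.3. E2f2, the repressing E2F, had 46.2, with 36.7 in replicate 2, and its region in replicate 3, with 24.1, was too far from the joint summit to match it. Rbf, the retinoblastoma homologue, had 20.1, with 14.3 in replicate 2 and no region in replicate 3. The Cdk inhibitor gene dap had 56.4 at rank 3595, with 31.2 in replicate 2 and 27.3 in replicate 3.

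The gene fzr, an activator of the anaphase-promoting complex, had a joint signal of 81.0 at rank 2057. Its summit lay 423 bp upstream, and the regions within 150 bp of it had 37.2 at rank 3152 in replicate 2 and 40.3 at rank 1546 in replicate 3. The replicate 2 summit lay 104 bp from the joint one and more than 500 bp from a TSS of fzr, so that the strongest replicate 2 region counted at fzr was another, with 16.8. The other activator gene, fzy, had 22.1 in the joint list and 14.5 in replicate 2. The Cdc25 genes had no joint region. For stg there was a region of 10.5 in replicate 2 alone, and for twe none.

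The mitotic checkpoint delays the separation of chromosomes until all are attached to the spindle. Bub3 (FBgn0025457) had a joint signal of 79.4 at rank 2133, with 44.4 at rank 2351 in replicate 2 and 36.1 at rank 1872 in replicate 3. BubR1 (FBgn0263855) had 74.5 at rank 2360, with 40.8 at rank 2704 and 30.05 at rank 2527, and its summit lay 94 bp upstream. Both were IDR peaks, and neither was among the 860 strongest. Bub1 had 41.9 at rank 5408, with 19.0 and 21.8. The region of mad2 had 18.01 at rank 24120, with 18.5 in replicate 2 and none in replicate 3. All 4 genes therefore had a region in the joint list, and that of mad2 was the weakest joint region of the 42 genes.

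The 42 genes had 16 IDR peaks in all, and every one had a region of both replicates within 150 bp of its summit. Of the 1768 IDR peaks at protein-coding TSSs, 94.7% had both. This is no independent check, since the IDR set was made from the replicate lists. The median signal of the 16 peaks was 49.3 in replicate 2 and 47.1 in replicate 3, where those of the 1768 with a match gave 56.0 and 41.2. A match was found for 1751 of the 1768 in replicate 2 and for 1691 in replicate 3. The log2 ratio of replicate 2 to replicate 3 had a median of 0.09 over the 16 and of 0.43 over all that were matched in both. It ran from -0.89 at the second aurA peak to 2.04 at the second Dp peak. The replicate 3 region matched to the second aurA peak was also that of the first, so it entered these medians with both.

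**Figure D3:**
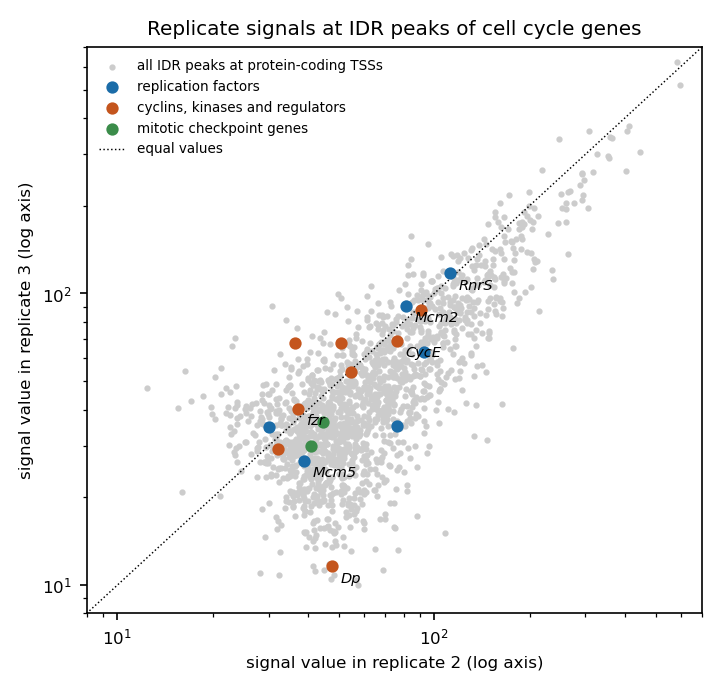
Signal value of each IDR peak in replicate 2 against replicate 3 (log axes), for all IDR peaks at protein-coding TSSs with a match in both (grey) and the 16 at the 42 genes (coloured by class). The dotted line marks equal values, Among the 16, RnrS is highest with 112 and 118, and the second Dp peak lies farthest below the line with 47.7 and 11.6.

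The strongest summit of each of the 13 genes lay upstream of the nearest TSS of the gene, at distances from 55 bp for dup to 431 bp for CycE, with a median of 215 bp. Of all 2302 protein-coding genes with an IDR peak, 91.2% had it upstream, and their median was 150 bp.  In the annotation 9 of the 13 summits were intergenic, those of CycE and Dp were in introns, and those of dpa and dup were in annotated 5'UTR of the gene itself. These last 4 genes have several TSSs, so that a summit upstream of the nearest TSS lay inside the gene. Such places were not counted over the 2302 genes, so whether the 13 differ from them is not known.

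**Figure D4:**
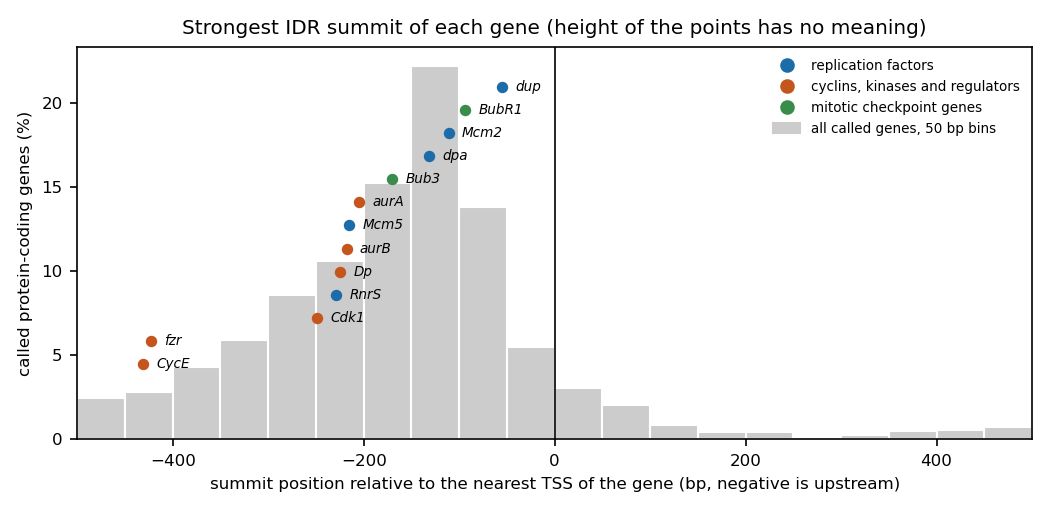
Position of the strongest IDR summit relative to the nearest TSS, in bp with negative values upstream, as a histogram over 2302 protein-coding genes in 50 bp bins and as points for the 13 genes. All 13 points lie left of the TSS, between 431 and 55 bp upstream.

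Most of these peaks lay near more than 1 gene. Sharing and head-to-head starts were counted after the distances of the 13 genes had been seen. For 9 of the 13 genes (69.2%) the strongest summit also lay within 500 bp of the TSS of another protein-coding gene, against 59.7% of all genes with a peak. The peak of Mcm2 was shared with RPA1, which encodes a subunit of the single-strand binding protein of the replication fork. The peak of Bub3 lay nearer to Cap-D2, a condensin gene, at 60 bp against 170 bp. In the same way Mcm5 was shared with Art1 (83 bp), Cdk1 with the mitochondrial ribosomal protein gene mRpS7 (151 bp) and aurA with CG3281 (114 bp), and these neighbours' TSSs were the nearer. The peak of dup lay 55 bp from a TSS of dup and 55 bp from that of SRPK. The remaining sharing neighbours were didum for dpa, CG34231 for RnrS and Stam for aurB. CycE, fzr, Dp and BubR1 shared their strongest peak with no other protein-coding gene.

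Genes that start head to head with a neighbour had peaks more often, among the 42 and in the genome. Of the 42 genes 22 (52.4%) had a protein-coding TSS on the other strand within 1000 bp upstream, against 36.2% of all protein-coding genes. Of these 22 genes 10 had an IDR peak (45.5%), where head-to-head genes in general gave 29.8%. Of the 20 without such a partner 3 had one, CycE, fzr and BubR1, where the other genes of the genome gave 8.98%. All 5 replication factors with a peak were among the 11 that were head to head (45.5%, against 29.8% of head-to-head genes in general). None of the 7 replication factors without a partner had one, against 8.98% of such genes in the genome. Among the 10 head-to-head genes with a peak, Dp had its peaks in introns, with no TSS of its partner Fsn within 500 bp. Whether the 42 genes differ from other genes of the same arrangement was not tested.

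**Figure D5:**
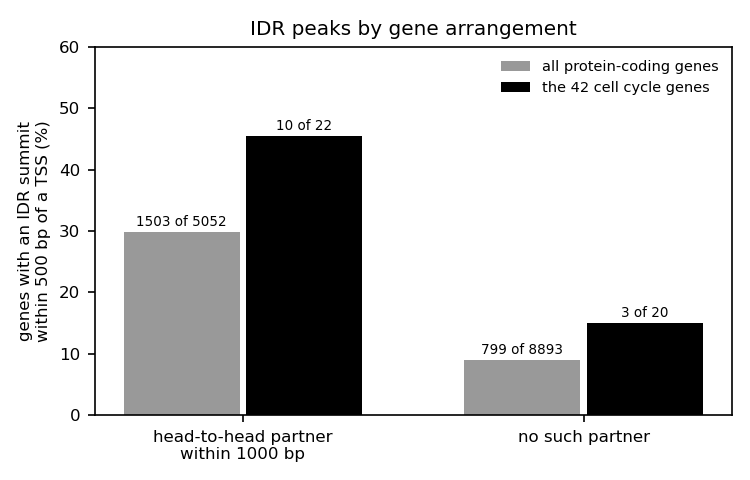
Percentage of genes at whose TSS an IDR summit was found (500 bp window), for all protein-coding genes (grey) and the 42 genes (black), split by a head-to-head protein-coding TSS within 1000 bp. The labels give the counts, 10 of 22 against 1503 of 5052 with a partner, and 3 of 20 against 799 of 8893 without.

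Outside the windows at their own TSSs, 16 of the 42 genes (38.1%) had an IDR peak inside the gene or within 5000 bp of a TSS. The share of all protein-coding genes was 26.0%. The strongest lay 3331 bp downstream of a TSS of CycB with a joint signal of 351, in intergenic sequence more than 500 bp from any TSS. The one 3748 bp downstream of a TSS of stg had 65.6 and was also more than 500 bp from any TSS. Many of the 19 such peaks lay within 500 bp of the TSS of another gene. They were those near Orc1, Orc4, Mcm3, Mcm5, Mcm6, RnrS, twe and E2f2, and both near Cdk1. The neighbours were, for example, Drat for Orc1, Reg-5 for Orc4, Fum1 for Mcm6 and EndoGI for twe.

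Sites for DREF and E2F were found in promoters with and without a peak. The search covered 11 words on either strand, in windows from 250 bp upstream to 50 bp downstream of each TSS, and a gene with several TSSs was counted if any window matched. TATCGATA, the DRE, was present in 10 genes (23.8%) and in 10.2% of all protein-coding genes. Of the 10, 2 had an IDR peak and 8 did not. An E2F site, taken as TTTCGCGC or TTTGGCGC, was present in 11 genes (26.2%) and in 4.61% of all, and 3 of the 11 had an IDR peak. Counted together after the separate counts had been seen, these 3 words were in 20 genes (47.6%) and in 14.2% of all. That is 5 of the 13 genes with an IDR peak and 15 of the 29 without.

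The other 8 words were counted in the same windows. GGTCACACT, the core bound by M1BP, was in 7 of the 42 promoters (16.7%, against 6.78%). TTTGAA was in 24 (57.1%, against 46.1%) and TTCGAA in 8 (19.0%, against 16.3%), both words of the cell cycle homology region. CGATA, added after the sequences had been seen and contained in the DRE, was in 26 (61.9%) and in 7397 of all 13945 genes. TATAAA was in 23 (54.8%, against 51.2%) and GAGAGAG, bound by GAGA factor, in 4 (9.52%, against 9.08%). The E-box CACGTG was in 1, against 5.3% of all, and CAGGTAG, bound by Zelda, in none, against 2.3%. A match is a word in the sequence and not a measured site.

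Within 100 bp of the 16 summits, the DRE was found at 1, that of BubR1, where 5.83% of the 1768 promoter peaks had it. An E2F site was found at 2, those of dpa and dup, where 1.81% had it. CGATA was found at 9 of 16 summits and in 35.5% of the promoter peaks. TATAAA was at 8 of 16, against 43.2% of promoter peaks, TTTGAA at 6, against 34.4%, and CACGTG at 1, that of Dp, against 2.15%. None of the 16 held the words TTCGAA (7.01% of promoter peaks), the M1BP core (1.58%), the Zelda word (0.396%) or the GAGA word (3.17%). The A and T content of these windows had a median of 66.2%, from 51.7 to 74.6%, against 67.2% over all promoter peaks.

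Some of the promoter sites are shown in 30 bp stretches with the word in capitals, chosen after the counts were seen to show sites at genes with and without a peak. All are written on the coding strand of the gene in dm6, distances are to its nearest TSS, and in stg the E2F word lies on the other strand. The DRE of Orc5 (chr2L:13829756-13829785, plus strand) began 70 bp upstream of the TSS, that of CycA (chr3L:11833571-11833600, minus strand) 11 bp, that of Cdk2 (chr3R:20735551-20735580, plus strand) 61 bp, that of Bub1 (chr2L:5278992-5279021, plus strand) 50 bp, that of Bub3 (chr3R:29675426-29675455, minus strand) 23 bp and that of mad2 (chr3L:5813130-5813159, minus strand) 55 bp. Of these 6 genes only Bub3 had an IDR peak, with its summit 170 bp upstream. The E2F word of RnrL (chr2L:10327923-10327952, minus strand) began 2 bp downstream of the TSS, that of stg (chr3R:29255795-29255824, minus strand) 13 bp upstream and that of CycE (chr2L:15746683-15746712, minus strand) 91 bp upstream.
Orc5 DRE: ttatttcgttaTATCGATAtttttcgattg
CycA DRE: acgccacgaccTATCGATAgctggacagtg
Cdk2 DRE: taaggaattctTATCGATAtgtggcgctgc
Bub1 DRE: ttctatcgcacTATCGATAaccttgtgcat
Bub3 DRE: aatatgcaatgTATCGATAgtgatatcgaa
mad2 DRE: tcaccgatattTATCGATAtattgcagaca
RnrL E2F: aatgactttaaTTTGGCGCctttttgtgct
stg E2F: taaaagctcgcGCGCCAAAatcagtggcct
CycE E2F: gatccgcctgtTTTGGCGCgttcctcatgc

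Other genes listed under the same processes had IDR peaks at a share between those of the 42 genes and of all genes. In 3 lists written from general knowledge of the fly genes, 28 of 135 genes had one (20.7%), against the 16.5% of all protein-coding genes. By list the share was 17.1% for the replication machinery, 20.8% for cell cycle control and 23.9% for kinetochore and spindle genes. Other genes of the replication machinery had 7 of 41, led by PolD2, a DNA polymerase delta subunit gene, with a joint signal of 190.3, RPA1 with 166.5 and Ctf4, a fork protein gene, with 127.8. Genes listed under cell cycle control had an IDR peak at 10 of 48. The strongest were Cdc16, a subunit gene of the anaphase-promoting complex, with 228, Cdk12 with 189.7 and tefu, the ATM kinase gene, with 188. Kinetochore and spindle genes had 11 of 46, led by sti, the citron kinase gene, with 220.2, SAK, the gene of the centriole kinase Plk4, with 189.7 and cnn, encoding a centrosome protein, with 182. The region of SAK is that of Cdk12, and the region of RPA1 is that of Mcm2. The genes lok, listed under cell cycle control, and barr, listed under kinetochore and spindle, also share a region, with 94.0. In the complete joint list the 3 lists together had 86 of 135 genes (63.7%), where the 42 genes had 71.4%. Of the 135 genes 86 (63.7%) were head to head, and 25 of these had an IDR peak. That is 29.1%, against 29.8% of head-to-head genes in general. Of the 49 without a partner 3 had one (6.12%), against 8.98% in the genome. Within each arrangement the pooled 135 genes were not above the genome share, but the single lists differed. Of head-to-head genes, 34.4% of kinetochore and spindle, 32.1% of cell cycle control and 19.2% of replication machinery genes had an IDR peak. Without a partner the shares were 0.0%, 5.0% and 13.3% in the same order. Whether these shares differ from those of the genome was not tested.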

How the data were processed

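ChIP-seq with an antibody to GFP was done on 2 biological replicates of embryos, and chromatin was sheared to 200 to 800 bp per the labels. The deposited region lists in assembly dm6 were used: 1 for each replicate, 1 from both, and the IDR peaks. Per the deposited notes, the joint list came from both alignments and 1 further file whose content is not stated, and the IDR peaks came from all 3 lists. The deposited signal value is a score given by the authors' caller. The sources used here do not name the aligner, the caller or the IDR threshold. Signal tracks, the control library and the dm3 lists are not analysed here, and read depth is unknown.

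TSSs came from Ensembl release 115 on the same assembly (Release 6), with 23581 distinct TSSs, and sequence from the RefSeq genome of that release. Summits were converted to 1-based positions, and summits of different lists were matched within 150 bp, taking the strongest. The genes, lists and words were chosen with earlier results of these data known. CGATA, the combined DRE and E2F count, the counts of shared and head-to-head starts and the printed sequences were chosen after values of this work had been seen. After the first counts, 1 unmatched name in the replication list (lat) was replaced by its current symbol (Orc3), so that all 135 related genes matched. No test was run, since the data hold 1 group. By rule, every one of the 42 genes is named, with signal and rank for each IDR peak, and of each related list the 3 genes with the strongest peak. Alternatives changed the region list, the replicate, the distance, the TSSs, the overlap and the assignment. The search for summits at TSSs was tested on simulated data. Python 3.11.15, numpy 2.4.6, pandas 2.3.3 and matplotlib 3.10.9 were used.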

Additional observations from a re-analysis of the deposited data

How the results depend on the processing

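The counts of genes with an IDR peak moved by more than 1.5 times in 9 of 36 recomputations. With only the 860 strongest IDR peaks they were 5 of 42 for all genes, 3 for the replication factors, 2 for the cyclins, kinases and regulators and 0 for the checkpoint genes, where 5.25% of all protein-coding genes had a peak. With all joint regions they were 30, 10, 16 and 4. Both sets differ from the IDR peaks only in how far down the joint list they reach. With each summit given to the gene of its nearest TSS alone, the checkpoint genes fell from 2 to 1, since the Bub3 peak went to Cap-D2, and the 42 genes gave 10, where 11.9% of all protein-coding genes did. Leaving out a replicate gave 12 to 15 for the 42 genes, 5 for the replication factors, 5 to 8 for the cyclins, kinases and regulators and 2 for the checkpoint genes. Without replicate 2, CycD and dap were gained; without replicate 3, E2f2 was gained and aurB and fzr were lost. Windows of 250 and 1000 bp gave 11 and 14, where 12.7% and 18.8% of all protein-coding genes had a peak. With 1 TSS per gene CycE and Dp were lost (11, against 14.6% of all), and with the region rather than its summit within 500 bp Cdk4 was gained (14, against 17.6% of all). Depth is unknown, so the lack of a region at a gene cannot be read as lack of binding.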
